A study of Arabidopsis thaliana with 22 samples.

Results

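The flavonol biosynthesis genes of Arabidopsis thaliana were followed through 22 seedling RNA libraries. They are 10 of the 24185 loci in the count table and were taken by locus code. In order of the pathway they are 4CL3 (AT1G65060), CHS (AT5G13930), CHI (AT3G55120), CHIL (AT5G05270), F3H (AT3G51240), F3'H (AT5G07990), FLS1 (AT5G08640), UGT78D1 (AT1G30530), UGT78D2 (AT5G17050) and UGT89C1 (AT1G06000). All 10 were detected in every library, and all 10 passed the filter on low values.

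The study asked how natural accessions respond to ultraviolet light. Whole seedlings, 14 days old and soil-grown with 16 h of light a day, were given UV (4.35 W per square metre measured at 312 nm) or mock treatment. They were frozen 3 h later, and their total RNA was sequenced. How long the exposure lasted is not stated. The accessions, inbred strains each descended from a wild plant, were Ba-1, C24, Lip-0 and Mh-0 with 2 mock and 2 UV libraries each, Got-7 with 2 mock and 1 UV library, and T1080 with 1 mock and 2 UV libraries. Nothing in the labels says that replicate libraries are from different plants, so p-values rest on a spread between samples that could be technical.

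Flavonols are colourless flavonoids that collect in the outer cell layers of leaves and stems, where they absorb UV-B and quench reactive oxygen. They are built from phenylalanine: a coumaroyl unit joined to coenzyme A is condensed with malonyl units by chalcone synthase, the product is closed and oxidised to kaempferol or quercetin, and sugars are then attached for storage in the vacuole. In Arabidopsis the early genes of the pathway are known to be switched on through the UV-B receptor UVR8, the light factor HY5 and the flavonol MYB factors MYB11, MYB12 and MYB111.

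The stretches just before the start sites of 4 members are shown because their letters hold sequence words of the kind bound by the light and MYB factors above. Each is 250 bases upstream of the annotated start site, read 5′ to 3′ on the gene's own strand from the RefSeq assembly TAIR10.1. The capitals mark the G-box CACGTG and its core ACGT, the AC-I element ACCTACC and the AC-III element ACCTAAC, which in CHIL stands as its reverse complement GTTAGGT. The CHS stretch is chr5:4488226-4488475 (plus strand), that of CHIL is chr5:1563036-1563285 (plus strand), that of F3H is chr3:19024942-19025191 (plus strand) and that of 4CL3 is chr1:24171636-24171885 (minus strand).
CHS: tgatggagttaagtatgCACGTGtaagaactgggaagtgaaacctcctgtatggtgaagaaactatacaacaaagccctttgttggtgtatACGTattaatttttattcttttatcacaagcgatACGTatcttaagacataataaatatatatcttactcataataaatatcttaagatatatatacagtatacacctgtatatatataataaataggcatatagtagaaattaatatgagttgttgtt
CHIL: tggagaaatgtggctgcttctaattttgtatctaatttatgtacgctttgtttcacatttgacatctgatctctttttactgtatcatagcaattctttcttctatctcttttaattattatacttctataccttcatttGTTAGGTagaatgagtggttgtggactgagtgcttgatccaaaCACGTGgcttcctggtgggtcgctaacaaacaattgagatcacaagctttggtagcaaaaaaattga
F3H: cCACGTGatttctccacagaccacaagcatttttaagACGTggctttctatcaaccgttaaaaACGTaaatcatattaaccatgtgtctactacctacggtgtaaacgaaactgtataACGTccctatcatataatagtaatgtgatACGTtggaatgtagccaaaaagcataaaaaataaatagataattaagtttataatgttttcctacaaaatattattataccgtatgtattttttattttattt
4CL3: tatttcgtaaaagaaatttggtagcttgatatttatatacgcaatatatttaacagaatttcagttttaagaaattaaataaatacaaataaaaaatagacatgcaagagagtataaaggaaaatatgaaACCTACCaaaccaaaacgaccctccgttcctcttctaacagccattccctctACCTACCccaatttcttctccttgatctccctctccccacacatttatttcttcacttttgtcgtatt
Both strands were searched in the same 250 bases of all 10 members and of 27443 annotated genes. The G-box was in 3 of the 10 members (CHS, CHIL and F3H) and in 6.49% of all genes. The ACGT core, which every G-box also holds, was in 4 members, those 3 and UGT89C1, against 44.1% of all genes. The AC-I element was in 4CL3, in 2 copies, and in UGT89C1, against 1.16% of all genes, and the AC-III element in CHIL alone of the members, against 2.46%. The AC-II element ACCAACC was in 0 of the 10 stretches and in 2.69% of all. These matches describe letters only.

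The libraries are compared here in a way that cuts across their labels. Each library carries a number from 1 to 22 in its description. Libraries 1 to 11 (the first set) are all those labelled Ba-1, C24 and Got-7, and libraries 12 to 22 (the last set) are all those labelled Lip-0, Mh-0 and T1080. In earlier results of these data, loci that were on in some libraries and off in others grouped the libraries into 6 genotype blocks, each with members in both sets, and these blocks do not follow the labelled accessions. Block 1 holds Ba-1 mock 1 and UV 1 with Lip-0 mock 1. Block 2 holds Ba-1 mock 2 and UV 2 with Lip-0 mock 2 and UV 1. Block 3 holds C24 mock 1 and mock 2 with Lip-0 UV 2 and Mh-0 mock 1. Block 4 holds C24 UV 1 with Mh-0 mock 2 and UV 1. Block 5 holds C24 UV 2 and Got-7 mock 1 with Mh-0 UV 2 and T1080 mock 1, and block 6 holds Got-7 mock 2 and UV 1 with both T1080 UV libraries. Of 57 loci that stood under 0.5 or at 10 or more CPM (counts scaled to a common library size, with TMM factors that correct each library's total for its composition) in every library, a median of 0 differed between libraries of the same block and set, and a median of 14 between the libraries of a labelled group of 2. Within whole blocks a median of 10 of the 57 differed, against 25 within labelled accessions. Loci of this kind are what the blocks were formed on, so these counts describe how the blocks were made and do not test them.

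What set the first and last libraries apart cannot be told apart from the labelled accession or from anything else that changed between them, and neither set is a treatment group. Both hold libraries labelled mock and libraries labelled UV. The sets and blocks were proposed with values of these data known. The p-values for set differences and for levels between blocks therefore give their size against the spread between libraries of the same block and set. They are no independent support for the grouping.

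Library totals ran from 3539510 to 20903894 counts. In the first set the 5 green tissue markers (RBCS1A, LHCB1.1, LHCB1.3, RCA and PSAF) summed to 39971 to 49166 CPM. In the last set they summed to 24466 to 39672 CPM, so the ranges nearly met. LHCB1.1 had nearly equal medians, 2793 and 2789 CPM, and the medians of the other markers were lower in the last set. The pathway differences described here thus moved with a lower green marker sum, though not with every marker. Root markers summed to 13.5 to 21.4 in the first set and 11.6 to 18.4 in the last, nearly all from SHR, with RHD6 at 0 in every library. Flower markers reached 5.21 and 1.58, and seed markers 0.639 and 0.682, with SESA3 at 0 throughout. The labelled tissue was thus matched by abundant green markers, and the part of tissue makeup in the results was not tested. In RNA of whole seedlings, fewer cells of a type and less RNA per cell cannot be told apart.

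Set against transcript length, CHS was the most abundant member, with a median of 61.0 CPM per kilobase over the 22 libraries. UGT78D1 followed at 28.7, then UGT89C1 at 21.3, CHI at 20.7, CHIL at 17.2, FLS1 at 16.8 and UGT78D2 at 15.9 CPM per kilobase. 4CL3 stood at 9.23, F3'H at 1.38 and F3H at 0.303 CPM per kilobase. The middle of this order, from UGT89C1 to UGT78D2, lay closer together than the libraries of any one of those genes did. F3H had 195 counts over all 22 libraries, between 1 and 52 each, so its values are the least precise. An annotated gene on the opposite strand, AT3G51238, covers 94.5% of F3H, and another, AT1G06002, covers 99.6% of UGT89C1. Whether reads were counted by strand is not stated, so reads of F3H and UGT89C1 could not be told from those of their partners.

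**Figure D1:**
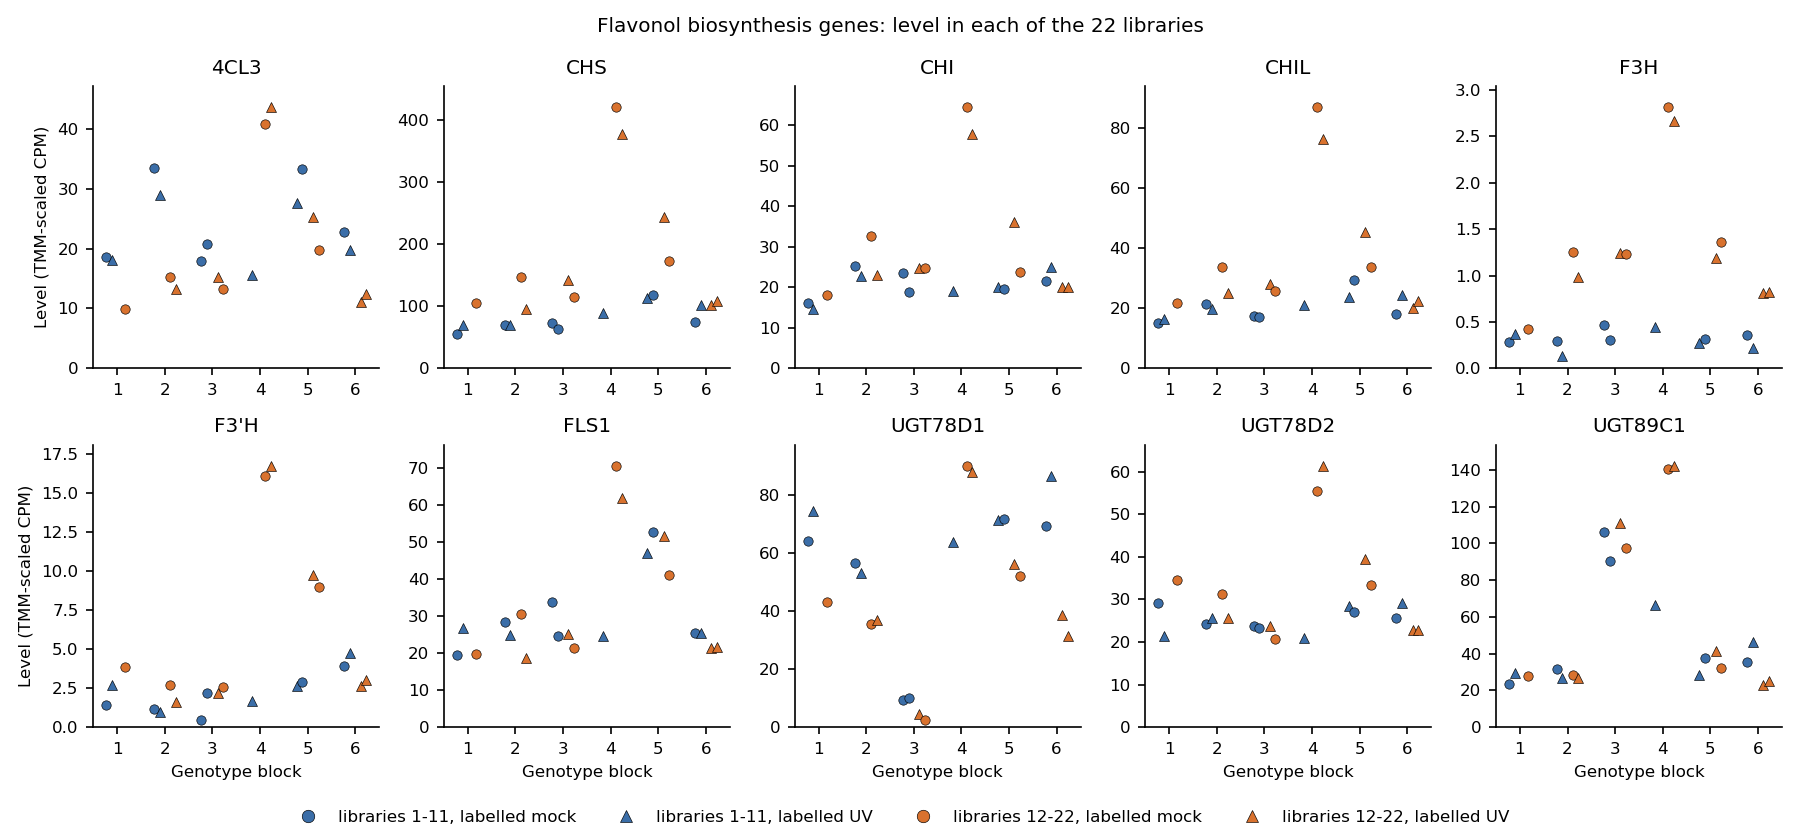
Level of each of the 10 members in each of the 22 libraries, in TMM-scaled CPM on linear axes that start at 0, with the genotype block on the horizontal axis, blue for libraries 1 to 11, orange for libraries 12 to 22, circles for libraries labelled mock and triangles for those labelled UV. The orange points of block 4, Mh-0 mock 2 and Mh-0 UV 1, are the top 2 in all 10 panels, and UGT78D1 is low in block 3.

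The first steps of the pathway were higher in the last set. Chalcone synthase (CHS), which makes the first flavonoid and sets the entry to the pathway, ran from 54.8 to 118 CPM in the first set (median 73.3) and from 95.4 to 421 CPM in the last (median 142). The ranges overlapped between sets, but within every one of the 6 blocks each last-set library was above each first-set library. All tested loci showed that pattern at a share of 23.3%, and among the members CHS and F3H did. F3H, however, passed the filter on low values through the last set only. The log2 fold change of CHS, averaged over the blocks with equal weight, was 0.96 ± 0.10 (SE, 11 libraries against 11; edgeR quasi-likelihood test, Benjamini-Hochberg adjusted p = 5.51e-06).

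Chalcone isomerase (CHI), which closes the chalcone into a flavanone, ran from 14.7 to 25.3 CPM in the first set (median 20.1) and from 18.0 to 64.5 CPM in the last (median 24.6). Most of the last-set libraries thus lay within the range of the first set. Its mean log2 fold change was 0.47 ± 0.08 (edgeR adjusted p = 6.12e-05). CHIL, a relative of chalcone isomerase without its activity that promotes flavonoid formation, ran from 14.9 to 29.5 CPM (median 19.9) and from 20.2 to 87.0 CPM (median 28.1). Its mean log2 fold change was 0.69 ± 0.08 (edgeR adjusted p = 9.17e-08).

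The hydroxylases had the largest mean folds of the members and the lowest counts. Flavanone 3-hydroxylase (F3H) was at 0.136 to 0.466 CPM in the first set and at 0.426 to 2.82 CPM in the last, with medians of 0.302 and 1.23 CPM. Only the ends of those ranges met. The mean log2 fold change of F3H was 1.71 ± 0.29 (edgeR adjusted p = 6.41e-06). The filter asked for 1 CPM or more in 2 libraries, which F3H reached in the last set only. F3H was thus tested through the set where it is high, and its p-values are no independent support for a difference. F3'H, the cytochrome P450 that adds the hydroxyl by which quercetin differs from kaempferol, was at 0.466 to 4.78 CPM in the first set (median 2.22) and at 1.58 to 16.8 CPM in the last (median 2.99). Its mean log2 fold change was 1.14 ± 0.16 (edgeR adjusted p = 2.37e-07), although the set medians lay close to each other.

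The ligase that feeds the pathway went the other way. 4CL3, the 4-coumarate:CoA ligase associated with flavonoids, stood at 15.7 to 33.5 CPM in the first set (median 20.8) and at 9.94 to 43.7 CPM in the last (median 15.3). Its last-set libraries were all below its first-set libraries in 5 blocks and all above them in block 4. The mean log2 fold change was −0.39 ± 0.06 (edgeR adjusted p = 5.22e-06).

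Flavonol synthase (FLS1), which makes kaempferol and quercetin from the dihydroflavonols, did not pass the test for a mean set difference. It stood at 19.5 to 52.7 CPM in the first set (median 25.5) and at 18.5 to 70.6 CPM in the last (median 25.0). Its mean log2 fold change was 0.06 ± 0.10 (edgeR adjusted p = 0.59). Its highest libraries outside block 4 were the 4 of block 5, at 47.0 and 52.7 CPM in the first set and 41.1 and 51.7 CPM in the last.

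The 3 glycosyltransferases, which attach the sugars of the stored flavonols, did not move together. UGT78D1, the flavonol 3-O-rhamnosyltransferase, ran from 9.48 to 86.5 CPM in the first set (median 64.2) and from 2.47 to 90.2 CPM in the last (median 38.5). It was lower in the last set in 5 blocks, and its mean log2 fold change was −0.62 ± 0.06 (edgeR adjusted p = 3.02e-09). UGT78D2, the flavonoid 3-O-glucosyltransferase that also acts on anthocyanidins, ran from 21.0 to 29.2 CPM (median 25.7) and from 20.6 to 61.4 CPM (median 31.4). Its mean log2 fold change was 0.38 ± 0.06 (edgeR adjusted p = 7.62e-07). UGT89C1, the flavonol 7-O-rhamnosyltransferase, ran from 23.2 to 106 CPM (median 35.5) and from 23.2 to 142 CPM (median 32.2). It did not pass (log2 fold change 0.09 ± 0.07, edgeR adjusted p = 0.254).

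In all, 8 of the 10 members passed for the mean set difference, 6 higher and 2 lower in the last set. F3H, tested only through its last-set levels, was among the 6 higher. Of all 18149 loci tested, 77.7% passed (38.4% higher and 39.3% lower), so the number of members that passed was near the background share. The members' median log2 fold change was 0.42, beside −0.01 over all tested loci. The median was 0.19 in an alternative chosen after seeing the data that leaves out block 4. It was 0.21 without C24 UV 1, the lone first-set library of block 4, whose loss also removes that block from the mean. In both alternatives the same 8 members passed in the same directions, where 76.5% and 76.2% of all loci passed, but the 4CL3 mean moved to −0.75 and −0.74, and the F3'H mean fell to 0.71 and 0.72. The means of CHI (0.23 and 0.24), CHIL (0.45 and 0.46) and UGT78D2 (0.16 and 0.17) were also smaller without that block or library. With the set as the only term and no blocks, 4CL3 (−0.22) and UGT78D1 (−0.40) did not pass (edgeR adjusted p = 0.452 and 0.463), and with block and set as additive terms UGT78D2 (0.30) did not (edgeR adjusted p = 0.0564).

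**Figure D2:**
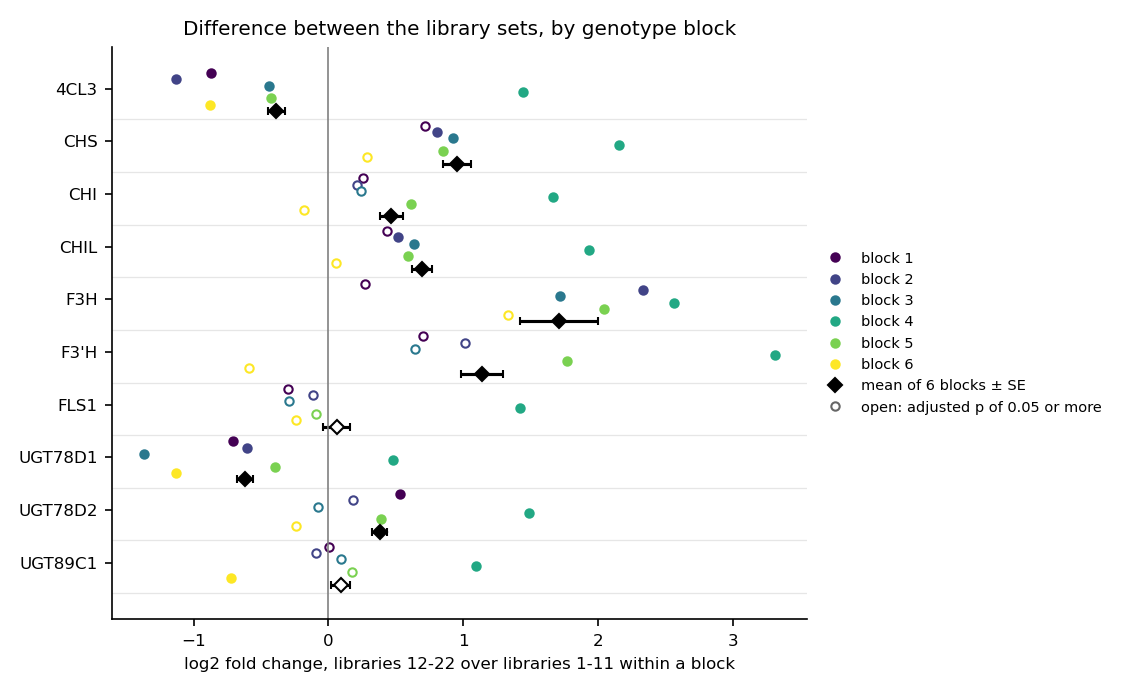
Log2 fold change of each member, libraries 12 to 22 over libraries 1 to 11, within each of the 6 blocks (coloured circles) and averaged over the blocks (black diamonds, bars are SE), filled where the adjusted p was under 0.05. Block 4 lies to the right of the other blocks for every member, and 4CL3 and UGT78D1 are to the left of 0 in all blocks but that one.

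The set difference was uneven between blocks for most members. A test of unequal set differences over the 6 blocks passed for 9 of the 10 members, against 33.5% of all tested loci. The smallest adjusted p was that of 4CL3 (edgeR, 7.65e-09) and the exception was F3H (0.501). Without block 4 the count was 4 of 10 (4CL3, F3'H, UGT78D1 and UGT78D2), against 33.1% of all loci in that fit, and without C24 UV 1 it was 5 of 10, those 4 and UGT89C1, against 33.3%. Both counts leave the members nearer the background share than the 9 of 10 did.

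Block 4 was the only block in which all 10 members passed, and all 10 were higher in the last set. Of all tested loci, 53.6% passed in that block, 27.2% higher and 26.4% lower. F3H, tested only through its last-set levels, was among the 10. CHS stood at 89.4 CPM in C24 UV 1 and at 421 and 378 CPM in Mh-0 mock 2 and Mh-0 UV 1. Those values gave a log2 fold change of 2.16 ± 0.29 (edgeR adjusted p = 8.67e-05). F3'H stood at 1.65 CPM and at 16.1 and 16.8 CPM in the same 3 libraries, and its log2 fold change, 3.32 ± 0.32, was the largest of any member in any block (edgeR adjusted p = 1.32e-09). 4CL3, lower in the last set everywhere else, stood at 15.7 CPM and at 40.9 and 43.7 CPM (log2 fold change 1.44 ± 0.15, edgeR adjusted p = 4.17e-09).

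The same pair of libraries, 1 labelled mock and 1 labelled UV, held the 2 highest levels of every member, Mh-0 mock 2 for 6 of them and Mh-0 UV 1 for 4. How many of all loci were highest in this pair was not counted, so the pattern may not be particular to the members. FLS1 reached 70.6 and 62.0 CPM there, UGT78D2 55.6 and 61.4 CPM, and UGT89C1 140 and 142 CPM. Their totals were 6402500 and 19546141 counts and their green markers summed to 33414 and 36193 CPM, inside the range of the last set. The contrast in block 4 rests on a single first-set library, C24 UV 1, the deepest of the series and the one with the highest green marker sum (49166 CPM). It was assumed to vary like the cells of 2 libraries, and the part of these features in the block 4 values was not tested.

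In the other blocks the members split. In block 5 8 of 10 passed, 6 higher (CHS, CHI, CHIL, F3H, F3'H and UGT78D2) and 2 lower (4CL3 and UGT78D1), against 53.7% of all loci (27% higher and 26.8% lower). CHS there stood at 114 and 118 CPM in the first set and at 243 and 173 CPM in the last, and F3'H at 2.63 and 2.88 against 9.74 and 8.98 CPM. In blocks 2 and 3 the same 5 members passed, CHS, CHIL and F3H higher and 4CL3 and UGT78D1 lower, where 57.3% and 68.6% of all loci passed. F3H was in blocks 2, 3 and 5 again tested only through its last-set levels. In block 2 28.2% of loci were higher and 29.1% lower, and in block 3 34.4% and 34.3%. Block 1 has a single last-set library, Lip-0 mock 1. In block 1 the number was 3, UGT78D2 higher and 4CL3 and UGT78D1 lower, against 46.9% of all loci (24.6% higher and 22.3% lower).

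Block 6 differed in its signs. Of the 3 members that passed there, 4CL3, UGT78D1 and UGT89C1, all were lower in the last set, against 55% of all loci passing, 27.7% higher and 27.4% lower. CHS stood at 75.1 and 101 CPM in the first set and at 103 and 109 CPM in the last, a log2 fold change of 0.29 ± 0.24 that did not pass (edgeR adjusted p = 0.338). UGT89C1 stood at 35.5 and 46.1 CPM against 23.2 and 25.0 CPM (log2 fold change −0.72 ± 0.17, edgeR adjusted p = 0.00224). Over all blocks, CHS and CHIL each passed as higher in 4 blocks, CHI and F3'H in 2, and FLS1 in block 4 alone. F3H also passed as higher in 4 blocks, but it was tested only through its last-set levels. Its passes are thus no independent support for a difference.

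The level itself, taken over both sets, varied between blocks for 9 of 10 members, against 80.5% of all tested loci. F3H was the exception (edgeR adjusted p = 0.0568). UGT78D1 gave the smallest p of the members (7.61e-16). In the 4 libraries of block 3 it stood at 9.48 and 9.87 CPM in the first set (C24 mock 1 and mock 2) and at 4.68 and 2.47 CPM in the last (Lip-0 UV 2 and Mh-0 mock 1). In the other 18 libraries it stood at 31.6 to 90.2 CPM, so the groups did not overlap, with means of 6.62 and 60.2 CPM, a 9.09-fold difference. Those 4 libraries carry 3 accession labels, and the other libraries of the same accessions were all in the higher range. The share of all loci that set a block apart from the other libraries in this way was not counted.

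UGT89C1, which adds rhamnose at another position of the same molecule, was high in block 3, where UGT78D1 was low. Its levels may include reads of AT1G06002 on the opposite strand, from which they could not be told apart. UGT89C1 stood at 106 and 90.4 CPM in the first-set libraries of block 3 and at 111 and 97.4 CPM in the last. Block 4 was also high, at 66.3, 140 and 142 CPM, and the other 15 libraries ran from 23.2 to 46.1 CPM. The level of UGT89C1 varied between blocks with an edgeR adjusted p of 2.29e-10, and in block 3 its set difference was small (log2 fold change 0.09 ± 0.14, edgeR adjusted p = 0.569). CHI was lowest in the 3 libraries of block 1, at 14.7 to 18.0 CPM against 18.7 to 64.5 CPM in the other 19. Of the members, only CHI in block 1 and UGT78D1 in block 3 stood apart from all other libraries in this way, CHI by a narrow margin (18.0 against 18.7 CPM). The share of all loci that did so was not counted, so this may not be particular to these members.

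The labels themselves imply a comparison of UV with mock, which no member passed. Over all accessions CHS had a median of 105 CPM in the 11 libraries labelled mock (54.8 to 421) and 103 CPM in the 11 labelled UV (69.5 to 378), and the ranges of every member overlapped in the same way. With edgeR, the mean UV effect over the 6 accessions passed for 0 of 10 members and for 0% of loci, with 0 members and 504 loci at an unadjusted p under 0.05. The members' log2 fold changes were between −0.18 and 0.39. Voom also gave 0 members and 0 loci, and DESeq2 gave 0 members and 2 loci, PNP-A and AT2G45220.

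Within single accessions 0 of 60 values passed with edgeR, voom or DESeq2, and 1 was at an unadjusted p under 0.05. That was UGT78D1 in C24, at 9.48 and 9.87 CPM in the mock libraries, both of block 3, and at 63.9 and 71.3 CPM in the UV libraries, of blocks 4 and 5 (log2 fold change 2.80 ± 1.12, edgeR adjusted p = 0.266). Of all loci, 0.27% passed in C24 (0.0661% higher and 0.204% lower), 0.00551% in T1080 and 0% in each of the other accessions. Without Mh-0 mock 2, 2 members passed in Mh-0, UGT78D1 (4.86, edgeR adjusted p = 0.0447) and UGT78D2 (1.29, adjusted p = 0.0403), with 2.68% of all loci. The single mock library then left, Mh-0 mock 1, is of block 3. The biological coefficient of variation was 26.7% between libraries of a labelled group and 6.94% between libraries of the same block and set. The blocks were formed on levels in these data, so the smaller spread within them does not test them.

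Pairs of labelled mock and UV libraries that share a block and a set allowed a second look at the labels. There were 8 such pairs, not all within a labelled accession. Lip-0 UV 2 was paired with Mh-0 mock 1, C24 UV 2 with Got-7 mock 1 and Mh-0 UV 2 with T1080 mock 1. In those, the accession label differed along with the treatment label. CHS was higher in the UV library of 5 pairs, with log2 ratios from −0.63 to 0.49. UGT78D2 was higher in 6 of the 8 pairs, between −0.45 and 0.24, and FLS1 in 3, between −0.73 and 0.45. Fitted over all libraries, with edgeR, this effect passed for 0 of 10 members and for 0.00551% of loci, which is 1 locus, the terpene synthase gene TPS02. At an unadjusted p under 0.05 there were 0 members and 695 loci, and voom and DESeq2 passed 0 members. The members' fitted log2 fold changes lay between −0.16 (F3H) and 0.10 (UGT78D1), with SE from 0.06 to 0.24. The value of CHS was 0.08 ± 0.12, beside 0.96 ± 0.10 for the set difference.

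**Figure D3:**
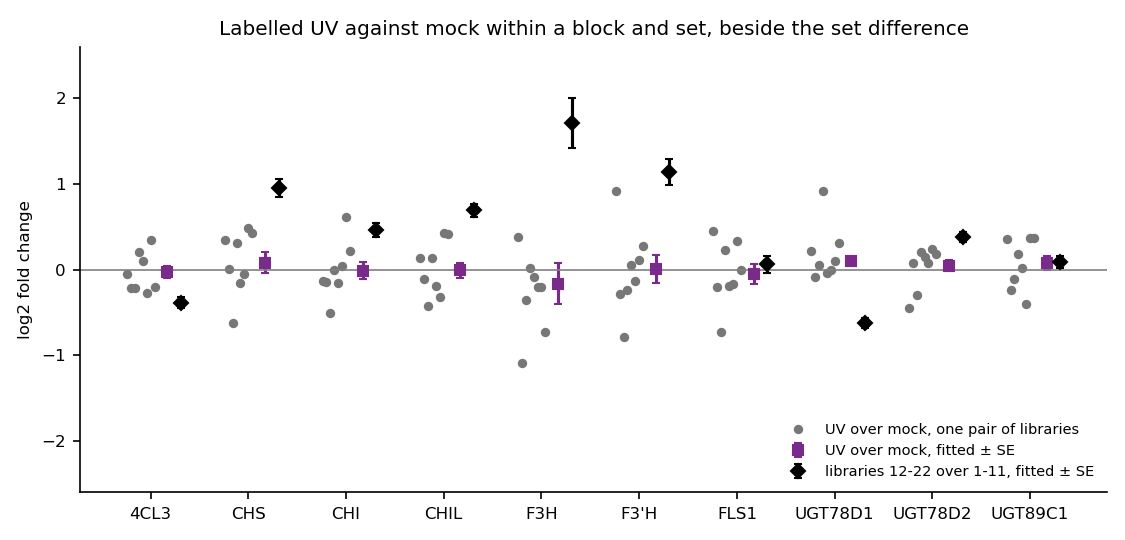
Log2 ratio of the library labelled UV to that labelled mock in each of the 8 pairs that share a block and a set (grey points), the same effect fitted over all libraries (purple squares, bars are SE) and the mean set difference (black diamonds, bars are SE), for each member. The purple squares lie between −0.16 and 0.10, and the black diamonds between −0.62 and 1.71.

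Genes that supply the pathway stood at higher levels in the last set, with PAL3 and ACC1 as exceptions. All 10 genes of a precursor list passed for the mean set difference, 8 higher and 2 lower, with a median log2 fold change of 1.20 beside −0.01 over all loci, of which 77.7% passed (38.4% higher and 39.3% lower). PAL2, a phenylalanine ammonia-lyase that starts the phenylpropanoid route, ran from 36.2 to 65.7 CPM in the first set and from 122 to 543 CPM in the last, without overlap (2.28 ± 0.07, edgeR adjusted p = 3.81e-13). C4H, the next enzyme of the route, ran from 87.2 to 120 and from 174 to 448 CPM (1.41 ± 0.04, edgeR adjusted p = 2.99e-21), and ATR2, a P450 reductase that passes it electrons, from 78.9 to 127 and from 194 to 750 CPM (1.98 ± 0.04, edgeR adjusted p = 1.05e-24). 4CL1, the ligase linked to lignin, was higher by 0.51 ± 0.03 (edgeR adjusted p = 1.04e-13), where 4CL3 was lower. PAL3 was lower without overlap, at 14.9 to 33.5 CPM against 4.07 to 9.65 CPM (−1.81 ± 0.08, edgeR adjusted p = 1.05e-17). Sets did not overlap, with the last set higher, for 13.4% of all loci and, with the last set lower, for 10.8%, and the sets overlapped for all 10 members. The highest libraries of PAL1, PAL2, C4H and ATR2 were Lip-0 UV 2, of block 3, and not the block 4 pair that led the members.

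Of 9 counted genes of a list of other flavonol genes, which includes relatives of FLS1, 7 were tested. Of these, 3 were higher and 2 lower, with a median log2 fold change of 0.57. The number that passed was near the 77.7% of all loci. RHM1, which makes the UDP-rhamnose that UGT78D1 and UGT89C1 use, ran from 125 to 189 CPM in the first set and from 240 to 450 CPM in the last, without overlap (1.00 ± 0.04, edgeR adjusted p = 2.05e-13). Of all loci, 13.4% were higher without overlap. OMT1, which methylates quercetin, was higher by 0.57 ± 0.04 (edgeR adjusted p = 3.10e-12). RHM2 (−0.14 ± 0.03) and RHM3 (−0.10 ± 0.04) were lower, and UGT78D3, a flavonol arabinosyltransferase with 125 counts in all, was higher by 0.90 ± 0.36 (edgeR adjusted p = 3.80e-04, 0.0444 and 0.0269). UGT78D3 reached at most 0.831 CPM in the first set, so it too passed the filter through the last set only.

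The anthocyanin branch shares CHS to F3'H with the flavonols. All 9 of its tested genes passed as higher in the last set, with log2 fold changes from 0.34 to 1.38 and a median of 0.69, where 38.4% of all loci were higher. DFR, which turns dihydroflavonols away from flavonols, ran from 3.40 to 22.4 CPM in the first set and from 6.71 to 41.9 CPM in the last (0.82 ± 0.12, edgeR adjusted p = 9.51e-06). A3AT2, an anthocyanin acyltransferase, was higher by 1.38 ± 0.14 (edgeR adjusted p = 1.14e-09), and GSTF12, needed to bring anthocyanins to the vacuole, by 0.60 ± 0.07 (edgeR adjusted p = 2.17e-08). By block the number of the 9 that passed as higher was 1 in block 1 (median 0.14, against 24.6% of all loci), 5 in block 2 (0.87, against 28.2%) and 4 in block 3 (0.28, against 34.4%). It was 9 in block 4 (2.24, against 27.2%) and 8 in block 5 (0.97, against 27%). In block 6, 1 was higher and 4 were lower (27.7% and 27.4% of all loci), and DFR there was at −0.82 ± 0.24 (edgeR adjusted p = 0.0081). CHS, CHI, CHIL, F3H and F3'H passed neither in block 6 nor in block 1, whose last set is the single library Lip-0 mock 1. The log2 fold change of CHS was 0.72 in block 1, beside 0.81 in block 2 and 0.29 in block 6.

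Of 15 regulators tested, 6 were higher and 5 lower, with a median log2 fold change of 0.05. Both the number that passed and its split were near those of all loci (77.7%, with 38.4% higher and 39.3% lower). MYB111, a flavonol activator, was lower without overlap, at 6.85 to 12.7 CPM in the first set and 0.942 to 4.66 CPM in the last (−1.71 ± 0.10, edgeR adjusted p = 1.68e-14), and it passed as lower in each of the 6 blocks. Of all loci, 10.8% were lower without overlap, and 23.1% had last-set libraries below first-set libraries in all 6 blocks. The other flavonol MYB genes had low counts and did not pass, MYB11 at 0.28 ± 0.31 and MYB12 at −1.05 ± 0.52 (edgeR adjusted p = 0.411 and 0.0691). The receptor UVR8 was lower by a small amount, at 102 to 142 against 87.2 to 130 CPM (−0.29 ± 0.03, edgeR adjusted p = 1.33e-09), as was its partner COP1, at 32.6 to 40.1 against 21.5 to 34.2 CPM (−0.38 ± 0.05, edgeR adjusted p = 2.40e-08). Last-set libraries were below first-set libraries in all 6 blocks for both, a pattern that 23.1% of loci had. RUP1, a repressor of UVR8 that UV-B signalling is known to induce, was higher, at 0.538 to 2.22 against 1.24 to 7.89 CPM (1.44 ± 0.17, edgeR adjusted p = 1.79e-08). HY5 did not pass (0.05 ± 0.07, edgeR adjusted p = 0.519).

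**Figure D4:**
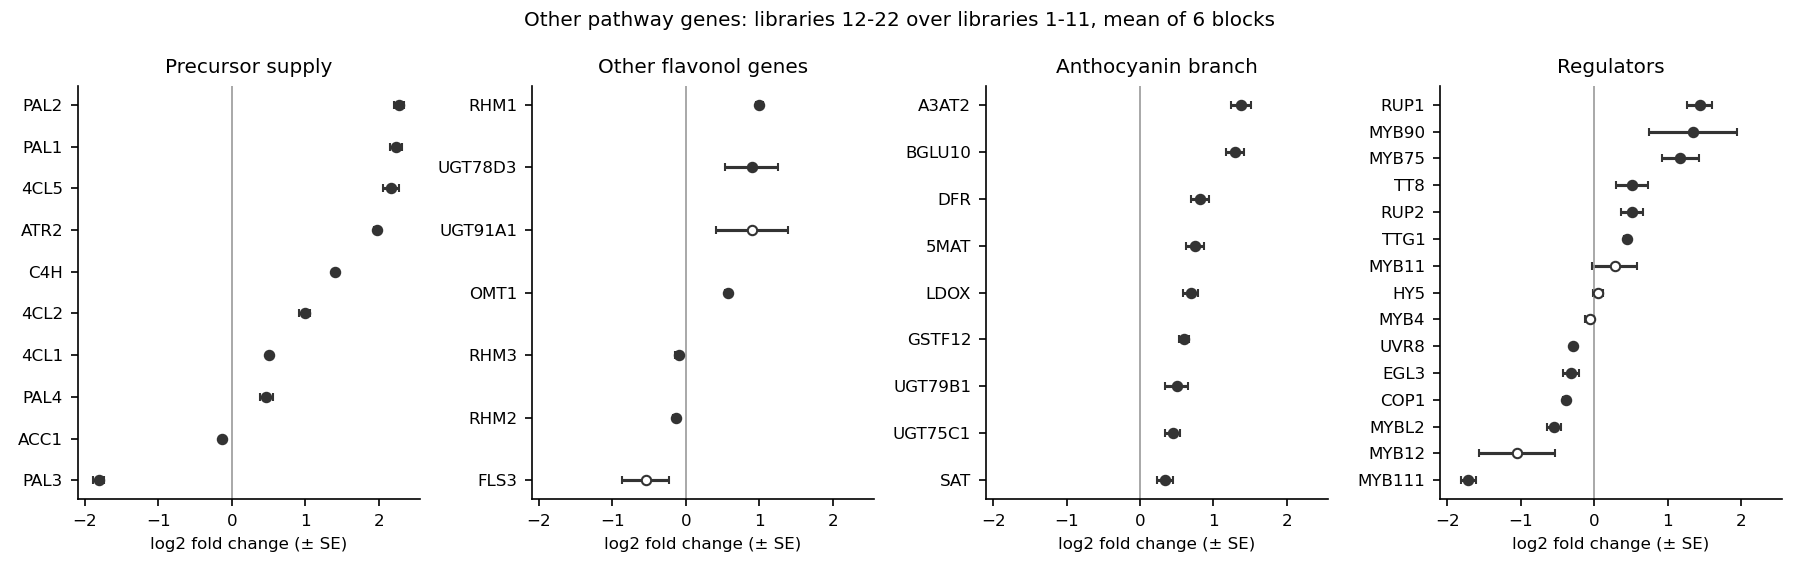
Mean log2 fold change over the 6 blocks, libraries 12 to 22 over libraries 1 to 11, for the tested genes of the precursor, other flavonol, anthocyanin and regulator lists (points, bars are SE), filled where the adjusted p was under 0.05. All 9 anthocyanin genes lie above 0, PAL3 and MYB111 lie lowest at −1.81 and −1.71, and the regulators fall on either side of 0.

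As a description, the members' own pattern over the 22 libraries was followed after each set was centred on its mean. CHS and CHIL each correlated with the members' mean at a Pearson r of 0.97, which includes them, and the lowest members were UGT78D1 at 0.57 and UGT89C1 at 0.45. Outside the lists the most alike loci were AT2G23910 (r = 0.88), AT1G79970 (0.86), DHAR1 (0.84), a dehydroascorbate reductase gene, AT5G39390 (0.83), KAT5 (0.82), a thiolase gene, and ABCI20 (0.82), an ABC transporter gene. Libraries of the same block are not independent points in these values, and depth differed between libraries. The block 4 pair held the 2 highest levels of every member. Its part in these correlations was not tested, and levels of the alike loci by library are not given here.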

How the data were processed

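The authors deposited raw counts, whole numbers for each of 24185 loci, with no normalization as far as the values show. The submitters' processing notes name FastQC and TopHat, and as builds TAIR9 and TAIR10, without saying which served for what. Which program counted the reads, on which annotation and with which strand setting, is not stated. The number in each sample description named its column, with 0 columns unmatched. Totals were 3539510 to 20903894 counts, and a count of 3 equalled 0.150 to 0.860 TMM-scaled CPM.

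The main test was the robust quasi-likelihood F test of edgeR 4.0.16 with TMM factors, run in R 4.3.3 on 18149 loci (1 CPM or more in 2 or more libraries). Benjamini-Hochberg adjustment covered all of these loci, and the threshold was 0.05. The set difference was fitted on 12 means of block by set, of which 2 hold 1 library, whose spread was taken from the rest. The UV effect was fitted on 12 means of labelled accession and treatment, and again within block and set. The SE of a fold change was derived from its F value. Alternatives were DESeq2 1.42.0, limma 3.58.1 (voom), other scalings, no filter, other designs and leaving out each library. Gene names, positions and upstream sequences came from RefSeq (TAIR10.1), which held 23847 of the loci; transcript lengths are of the longest annotated transcript.

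The members, lists, blocks and sets were chosen with earlier results of these data known. Besides the 10 members, genes of the 4 pathway lists were named where they passed, up to 5 a list by the smallest p, or where their role was background, with the 6 most alike loci by Pearson r. FLS4, FLS6, A3AT1 and HYH are not analysed here.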

Additional observations from a re-analysis of the deposited data

Results flagged for a closer look

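The set difference, libraries 12 to 22 over libraries 1 to 11, differed in size between the 6 blocks for 9 members (edgeR quasi-likelihood F test, Benjamini-Hochberg over 18149 loci, of which 33.5% passed). For 4CL3 the adjusted p was 7.65e-09, with log2 fold changes from −1.13 to 1.44, and for UGT78D1 it was 6.41e-06, from −1.37 to 0.48. For UGT78D2 it was 1.68e-06 (−0.24 to 1.49) and for F3'H 1.1e-05 (−0.59 to 3.32). CHIL had an adjusted p of 0.000243 (0.06 to 1.93), CHI 0.000853 (−0.18 to 1.66) and UGT89C1 0.000931 (−0.72 to 1.09). FLS1 had 0.00863 (−0.30 to 1.42) and CHS 0.0362 (0.29 to 2.16). The upper end of each range was block 4, whose first set is the single library C24 UV 1.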

How the results depend on the processing

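The count of members that passed for the mean set difference was 8 in each fit that left out 1 library, scaled otherwise, used another tool or no filter, 7 with additive terms and 6 with the set as the only term. That of loci was 13783 to 14082 when each of the 22 libraries was left out. Leaving out 1 library gave 24 to 37 passes over blocks and members (34 with all libraries), 5 to 9 members with unequal set differences, 9 to 10 members whose level varied between blocks, and a members' median of 0.21 to 0.46. Without C24 UV 1, which gave the lowest of these medians, block 4 has no contrast. In the fits chosen after seeing the data, unequal set differences passed for 4 members without block 4, and the members' median was 0.19 without block 4 and 0.51 without block 3. It was also 0.51 with the set as the only term. FLS1 turned to −0.21 without block 4 and ran from −0.1953 (without C24 UV 1) to 0.1359 when 1 library was left out, below 0 also without Lip-0 mock 2 (−0.0041). UGT89C1 turned to −0.11 without block 4 and ran from −0.0939 (without C24 UV 1) to 0.1502. Neither passed in any of these. The labelled UV effect passed for 2 loci with DESeq2 and for 0 to 7 loci when 1 library was left out (the 7 on dropping Got-7 mock 2 and 1 on dropping Lip-0 UV 2). Over all accessions it passed for 0 members in each fit, and within accessions for 0 to 2. Why these values moved was not tested.

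With the replicate number of the labels as a replicate block, the UV effect passed for 0 members and 0 loci. Same-numbered mock and UV libraries did not deviate together in all accessions (r of their deviations 0.60 in Ba-1, −0.00 in C24, −0.34 in Lip-0 and −0.28 in Mh-0), so the numbers were not taken as pairs. Other scalings moved the median of all loci to at most 0.03. Counting error limits F3H most, with 195 counts in all.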
